A study of Mus musculus with 8 samples.

Results

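The miR-30 family was followed in 3A hepatocytes and in the extracellular vesicles (EVs) that these cells release, with and without silencing of the RNA-binding protein PCBP2. The members were picked by name. They are the 5 guide strands from the 5p arm of their hairpins (mmu-miR-30a-5p, mmu-miR-30b-5p, mmu-miR-30c-5p, mmu-miR-30d-5p and mmu-miR-30e-5p, below without the prefix) and the 3p arms mmu-miR-30a-3p and mmu-miR-30e-3p, together 7 of the 1978 mature mouse miRNAs in the count table. All 7 were among the 180 miRNAs that could be tested, which had at least 1 read in at least 2 cell and at least 2 EV libraries.

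3A is a non-tumorigenic line of murine hepatocytes. The paper describes a pSUPER retro puro retroviral vector and puromycin selection for the PCBP2 knockdown, and lists its control shRNA under the same vector. It calls the shPCBP2 line new and the shCTR line previously generated. How each line was derived therefore cannot be told apart from silencing. EVs were collected by ultracentrifugation from medium conditioned by these cells in EV-depleted serum, and small RNAs were sequenced after addition of the synthetic nematode miRNA cel-miR-39. The 8 libraries fall into 4 groups of 2, called cell shCTR and EV shCTR for the control and cell shPCBP2 and EV shPCBP2 for the silenced line. Each condition is a single cell line. The study describes its 2 samples as biological replicates, without stating in the sources used here how they were separated, and p-values measure the spread between these samples.

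A mature miRNA binds its targets mainly through the seed, bases 2 to 8 from its 5′ end, and miRNAs that share a seed are grouped as a family. The miR-30 guides are abundant in epithelial tissues including liver and kidney. They are known as repressors of Snai1, a transcription factor of the epithelial-mesenchymal transition, and of Becn1, which starts autophagosome formation, while miR-30c also represses Mttp, the hepatocyte protein that loads lipid onto lipoproteins. Each hairpin yields a 5p and a 3p arm, and the arm that is not the guide is usually degraded.

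Mature sequences from RefSeq matched 5 of the 7 members by name. They are shown because the family is defined by its seed, given in capitals, and because near-identical members bear on how reads could be assigned. miR-384-5p is added as the other entry of the reference with the seed GUAAACA.
miR-30a-5p: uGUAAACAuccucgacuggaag
miR-30e-5p: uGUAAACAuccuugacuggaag
miR-30c-5p: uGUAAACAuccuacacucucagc
miR-384-5p: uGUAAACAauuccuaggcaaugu
miR-30a-3p: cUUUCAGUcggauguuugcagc
miR-30e-3p: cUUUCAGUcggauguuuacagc
The guides miR-30a-5p, miR-30e-5p and miR-30c-5p shared their first 12 bases. Counted from the 5′ end, miR-30a-5p and miR-30e-5p differed only by C13U, and miR-30a-3p and miR-30e-3p only by G18A. miR-30a-3p and miR-30e-3p carry a seed that differs from that of the guides, UUUCAGU, which no other mature miRNA of the reference held. The reference has no entry for the arms of miR-30b and miR-30d, so their seeds could not be compared. miR-384-5p had no read in any of the 8 libraries, so among the reference entries with the guide seed only the miR-30 guides were read.

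The hairpins of miR-30a, miR-30c and miR-30e lie in pairs, and those of miR-30a and miR-30e are shown with both mature arms in capitals because each gave 2 of the 7 members. Mir30a is at chr1:23272269-23272339 on the plus strand of GRCm38.p6, in no other annotated gene, and Mir30c-2 follows 19361 bases further on at chr1:23291701-23291784, in an exon of the lincRNA Gm27028. Mir30e at chr4:120772606-120772697 and Mir30c-1 at chr4:120769534-120769622 are 2983 bases apart on the minus strand, both within introns of Nfyc, which encodes a subunit of the CCAAT-binding factor NF-Y and is read from the same strand.
Mir30a: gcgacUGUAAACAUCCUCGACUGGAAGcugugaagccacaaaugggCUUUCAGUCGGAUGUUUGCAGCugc
Mir30e: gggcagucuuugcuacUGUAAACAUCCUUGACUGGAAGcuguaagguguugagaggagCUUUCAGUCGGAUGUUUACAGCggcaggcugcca
The same mature miR-30c-5p comes from Mir30c-1 and Mir30c-2, and its counts cannot be divided between both loci.

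The study that produced these libraries concerns short RNA motifs that hold miRNAs in the cell or send them into EVs. On the mature strand, the letters of the core CELL motif AUUA were found in 2.50% of the 1679 mature mouse miRNAs of the reference. Those of its variant AUUG were found in 6.79%. Among the 156 tested ones with a sequence the shares were 0% and 16.0%, and neither was found in the 5 members with a sequence. The study also scanned for an extended CELL motif, which was not searched here. The hEXO motif is given by the study as a degenerate consensus of 6 bases (G, A or U, then G, U or A, then G, A or U, then C, A or G, then U or A, then G or C). All 5 members with a sequence held a match to it, as did 82.1% of the 1679 mature miRNAs and 90.4% of the 156 tested ones with a sequence. In each member a match began at base 2, within the seed, as GUAAAC in the guides and as UUUCAG in both 3p arms. Further matches began at base 16 in the 3p arms and at base 17 in miR-30a-5p and miR-30e-5p. miR-30e-5p alone of these members also held a match from base 13, as UGACUG. The 4 letters GGCU, a single fixed form within that consensus, were found in 13.3% of the reference and in none of these 5 members. Among the other arms examined, GGCU occurred in miR-30c-2-3p, starting at base 10, and AUUG occurred in miR-384-3p.

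In the cells the members ranked between 68th and 132nd of the 772 miRNAs read there, and the most abundant of them was a 3p arm. Levels are given as reads per 1000000 cel-miR-39 reads of the same library. miR-30a-3p stood at 782 and 783 in the cell shCTR libraries and at 457 and 670 in cell shPCBP2. miR-30d-5p, the leading guide, stood at 615 and 706 in cell shCTR and at 408 and 500 in cell shPCBP2. miR-30a-5p, the guide from the same hairpin as miR-30a-3p, gave 395 and 421 in cell shCTR and 228 and 285 in cell shPCBP2. Every member of the family, those of the Mir30a hairpin included, had its lowest cell value in cell shPCBP2 replicate 1.

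miR-30e-3p stood at 355 and 374 in cell shCTR and at 209 and 278 in cell shPCBP2. miR-30c-5p, which derives from both Mir30c loci, had the widest gap between control cells, at 283 and 188, against 162 and 170 in cell shPCBP2. The least abundant members were miR-30e-5p, at 136 and 147 in cell shCTR and 62.3 and 82.4 in cell shPCBP2, and miR-30b-5p, at 117 and 105 and at 60.9 and 81.9. In cell shCTR the order was miR-30a-3p, miR-30d-5p, miR-30a-5p, miR-30e-3p, miR-30c-5p, miR-30e-5p and miR-30b-5p, with no overlap between neighbours. In cell shPCBP2 the order of means was the same, but miR-30a-3p overlapped miR-30d-5p, miR-30a-5p overlapped miR-30e-3p, and miR-30e-5p overlapped miR-30b-5p.

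**Figure D1:**
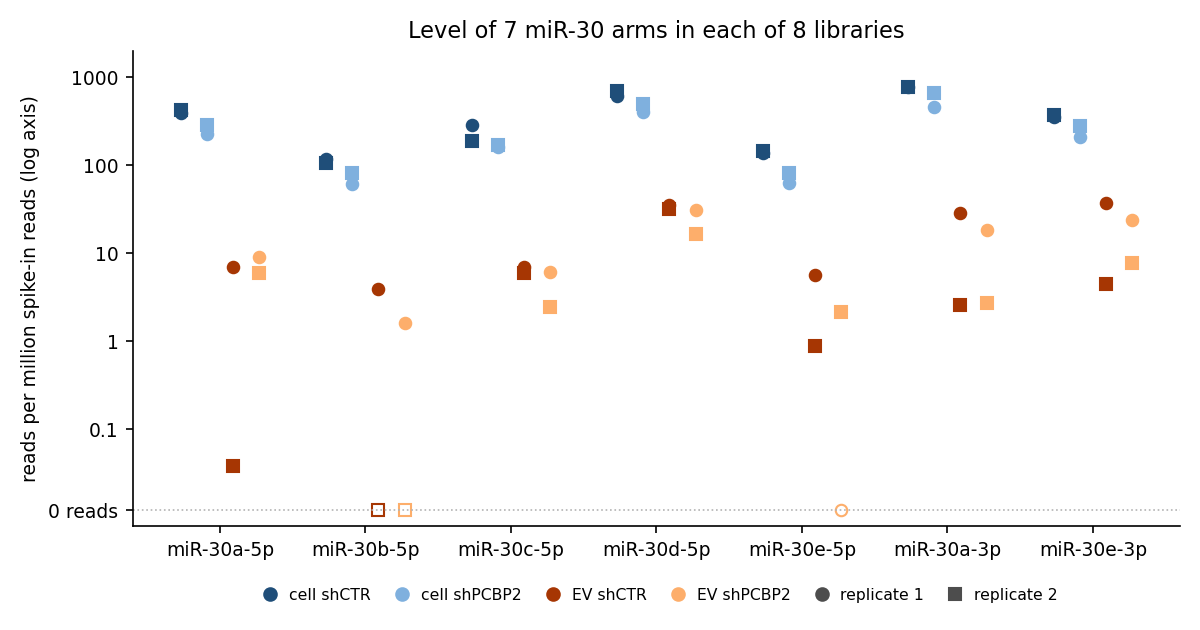
Level of each miR-30 member in each of the 8 libraries, in reads per 1000000 cel-miR-39 reads on a log axis, with open symbols for libraries with no read. The EV points lie below the cell points for all 7 members, and the 2 libraries of an EV group lie close for miR-30d-5p (35.5 and 31.7 in EV shCTR) and far apart for miR-30a-3p (28.5 and 2.57).

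In EVs the guide miR-30d-5p was the most evenly read member over both groups. It had 986 and 824 reads in EV shCTR, against 1159 and 502 in EV shPCBP2, or levels of 35.5, 31.7, 30.9 and 16.5, and ranked 76th of 267 miRNAs read in EVs, the same rank it held in the cells. miR-30c-5p had 195 and 154 reads in EV shCTR, against 231 and 75 in EV shPCBP2. These 2 guides were read in every EV library at 75 reads or more.

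The other guides were uneven. miR-30a-5p had 195 reads in EV shCTR replicate 1 and 1 read (exact Poisson 95% interval 0.0253 to 5.57 reads) in EV shCTR replicate 2, against 343 and 183 in EV shPCBP2. miR-30e-5p had 159 and 23 reads in EV shCTR, against 0 and 66 in EV shPCBP2. miR-30b-5p had 109 and 0 reads in EV shCTR, against 60 and 0 in EV shPCBP2. A count of 0 allows up to 3 reads, which is a level of 0.115 in EV shCTR replicate 2, so the miR-30b-5p level of 3.93 in EV shCTR replicate 1 lies above that limit. Of the 7 members, 5 were read in every EV library, where 70.6% of the 180 tested miRNAs were.

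Both 3p arms were several times higher in replicate 1 than in replicate 2 of each EV group. miR-30a-3p had 790 and 67 reads in EV shCTR, against 697 and 83 in EV shPCBP2, and the spike-in scaled levels differed 11.0-fold and 6.76-fold. miR-30e-3p had 1043 and 117 reads and 894 and 237 reads, or 8.33-fold and 3.05-fold. Within each group both arms were thus high in the same library. Whether the replicate numbers tie an EV shCTR library to an EV shPCBP2 library is not given in the sources used here.

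The spread of the family in EVs was large beside that of all tested miRNAs, which were not matched to the members for EV level. The members ranked between 76th and 205th of the 267 miRNAs read in EVs. A wide spread was not particular to them, since miR-106b-3p had no read in replicate 2 of either EV group. In EV shCTR the median absolute log2 difference between both libraries was 3.06 for the members against 0.53 for all 180 tested miRNAs, and in EV shPCBP2 it was 1.61 against 0.66. At least 2-fold differences between replicates were seen for 5 of 7 members in EV shCTR, where 37.2% of tested miRNAs differed as much, and for 5 of 7 in EV shPCBP2, where 37.8% did. In the cells the members were as tight as other miRNAs, with medians of 0.11 against 0.19 in cell shCTR and 0.40 against 0.47 in cell shPCBP2, and no member differed 2-fold, where 6.11% and 8.89% of tested miRNAs did.

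The summed members made up 0.376% and 0.367% of mouse miRNA reads in cell shCTR, and 0.320% and 0.292% in cell shPCBP2. In EVs the share was 0.506% (exact binomial 95% interval 0.489 to 0.523) and 0.214% (0.202 to 0.227) in EV shCTR, and 0.547% (0.529 to 0.566) and 0.228% (0.215 to 0.241) in EV shPCBP2. The intervals cover counting error only, and the gap between libraries of one EV group is far wider than they are. One EV library of each group lay above every cell library and the other lay below every cell library. Thus whether the family held a larger or a smaller part of the EV miRNAs than of the cell miRNAs differed between replicates.

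The make-up of the family also shifted. miR-30d-5p gave 22.9% to 25.9% of the members' reads in the 4 cell libraries, but 28.4% and 69.5% in EV shCTR, against 34.2% and 43.8% in EV shPCBP2, so that every EV library lay above every cell library. Both 3p arms together gave 42.0% to 45.8% of the members' reads in cells. In EVs they gave 52.7% and 15.5% in EV shCTR, against 47.0% and 27.9% in EV shPCBP2, on either side of the cell range.

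**Figure D2:**
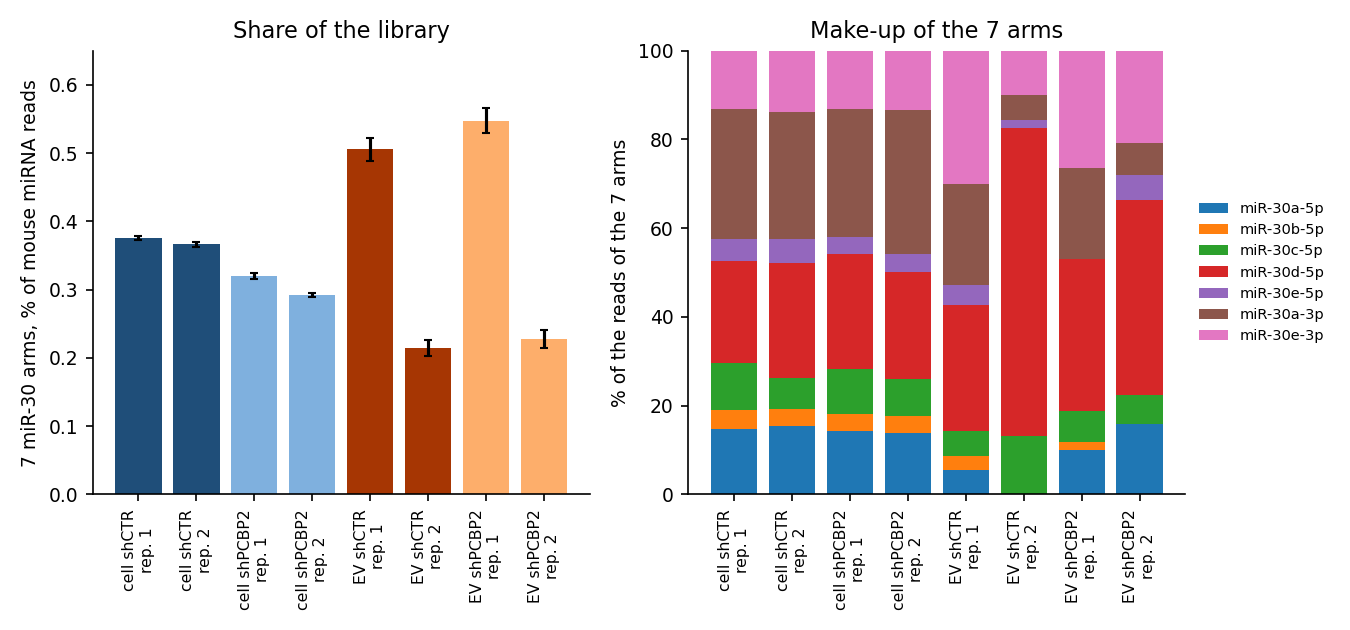
Share of mouse miRNA reads taken by the 7 miR-30 members in each library, in percent, with exact binomial 95% intervals. Cell libraries lie between 0.292% and 0.376%, while each EV group has one library above 0.5% and one near 0.2%.

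The first comparison asks how much of each member was found in EVs relative to the cells. Per cel-miR-39 read, every member was lower in all 4 EV libraries than in all 4 cell libraries, as were 78.3% of the 180 tested miRNAs. The amount of cells or EVs behind each library is not given in the sources used here, so these ratios are per spike-in read and not per cell, and fewer vesicles cannot be told apart from less RNA per vesicle. Scaled instead by the total mouse miRNA count of each library, no member was lower in every EV library than in every cell library, where 24.4% of tested miRNAs were.

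In shCTR, the quasi-likelihood test of edgeR, with p-values adjusted after Benjamini and Hochberg over the 180 miRNAs, called 5 of 7 members lower in EVs, beside 59.4% of all tested miRNAs called lower. The median log2 change was -5.42 over the members and -4.93 over all tested miRNAs. miR-30d-5p fell by 4.30 on the log2 scale (SE 0.48, edgeR adjusted p = 0.000243) and miR-30c-5p by 5.19 (SE 0.73, edgeR adjusted p = 0.000810). Among the 3p arms, miR-30e-3p had the smallest change of the family, -4.11 (SE 1.15, edgeR adjusted p = 0.0192), and miR-30a-3p changed by -5.66 (SE 1.48, edgeR adjusted p = 0.0146). miR-30a-5p changed by -6.85 (SE 2.04, edgeR adjusted p = 0.0241). miR-30b-5p, at -5.82 (SE 2.98, edgeR adjusted p = 0.1253), and miR-30e-5p, at -5.42 (SE 2.31, edgeR adjusted p = 0.0790), did not pass. Which members passed depended on the libraries that shared the estimate of spread. Fitted on the 4 shCTR libraries alone, miR-30a-5p and miR-30e-3p did not pass (edgeR adjusted p = 0.0939 and 0.0556). miR-30e-5p then passed (edgeR adjusted p = 0.0270), beside 67.8% of tested miRNAs called in either direction.

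Single libraries carried much of these sizes. Each such fit leaves 1 library in a group, which is assumed to vary like the others. Without EV shCTR replicate 1 the log2 change was -13.19 for miR-30a-5p, which then rested on 1 EV read, -8.25 for miR-30a-3p and -6.34 for miR-30e-3p, and without EV shCTR replicate 2 it was -5.86, -4.78 and -3.28. miR-30a-5p no longer passed when any one of the 4 cell libraries was left out, with edgeR adjusted p-values of 0.0501 to 0.0548, and without cell shCTR replicate 2 miR-30e-3p (0.0521) was lost as well, which left 3 members. For miR-30b-5p no change can be given without EV shCTR replicate 1, since the remaining EV shCTR library had no read of it. miR-30e-5p passed without EV shPCBP2 replicate 1 or 2, at -5.42 in both cases (edgeR adjusted p = 0.00620 and 0.00615). miR-30d-5p kept between -4.39 and -4.19 whichever library was left out.

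In shPCBP2, 4 of 7 members were called lower in EVs, beside 60.0% of all tested miRNAs. They were miR-30d-5p at -4.26 (SE 0.48, edgeR adjusted p = 0.000249), miR-30c-5p at -5.26 (SE 0.73, edgeR adjusted p = 0.000791), miR-30a-3p at -5.72 (SE 1.48, edgeR adjusted p = 0.0136) and miR-30e-3p at -3.94 (SE 1.14, edgeR adjusted p = 0.0214). miR-30a-5p gave -5.08, miR-30e-5p -6.06 and miR-30b-5p -6.47, with edgeR adjusted p-values of 0.0511, 0.0614 and 0.105. Fitted on the 4 shPCBP2 libraries alone, miR-30a-5p passed as well (edgeR adjusted p = 0.00224), beside 65.6% of tested miRNAs called in either direction. With DESeq2 all 7 members passed in both conditions, beside 81.1% and 78.3% of tested miRNAs called in either direction, and with limma voom as well, beside 82.2% and 80.0%. miR-30e-3p no longer passed without cell shPCBP2 replicate 1, cell shPCBP2 replicate 2 or EV shPCBP2 replicate 2, with edgeR adjusted p-values of 0.0555, 0.0713 and 0.0735. miR-30a-5p passed without either EV shCTR library, which moves only the estimate of spread (edgeR adjusted p = 0.000272 and 0.000274). miR-30e-5p passed without EV shPCBP2 replicate 1, at -5.05 (edgeR adjusted p = 0.0256), and miR-30b-5p passed without either EV shCTR library (edgeR adjusted p = 0.0398 and 0.0394). No change can be given for miR-30e-5p without EV shPCBP2 replicate 2 or for miR-30b-5p without EV shPCBP2 replicate 1, since the library that remains had no read.

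The direction rested on the spike-in. With library sizes from the total miRNA count, from TMM or from the median of ratios, no member was called in either condition. Of all tested miRNAs, 41.7%, 45.6% and 42.2% were called in either direction in shCTR under these scalings, and 49.4%, 48.3% and 47.8% in shPCBP2. The median over all tested miRNAs in shCTR then moved from -4.93 to 0.06, -0.17 and -0.15, miR-30d-5p and miR-30e-3p changed sign to 0.26 to 0.91 and 0.55 to 1.24, and miR-30a-5p in shPCBP2 to 0.09 with the total count. Under all 4 scalings miR-30d-5p and miR-30e-3p lay above the median of all tested miRNAs in both conditions, while the medians over the members lay below it, at -0.51, -0.69 and -0.75 in shCTR without the spike-in.

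**Figure D3:**
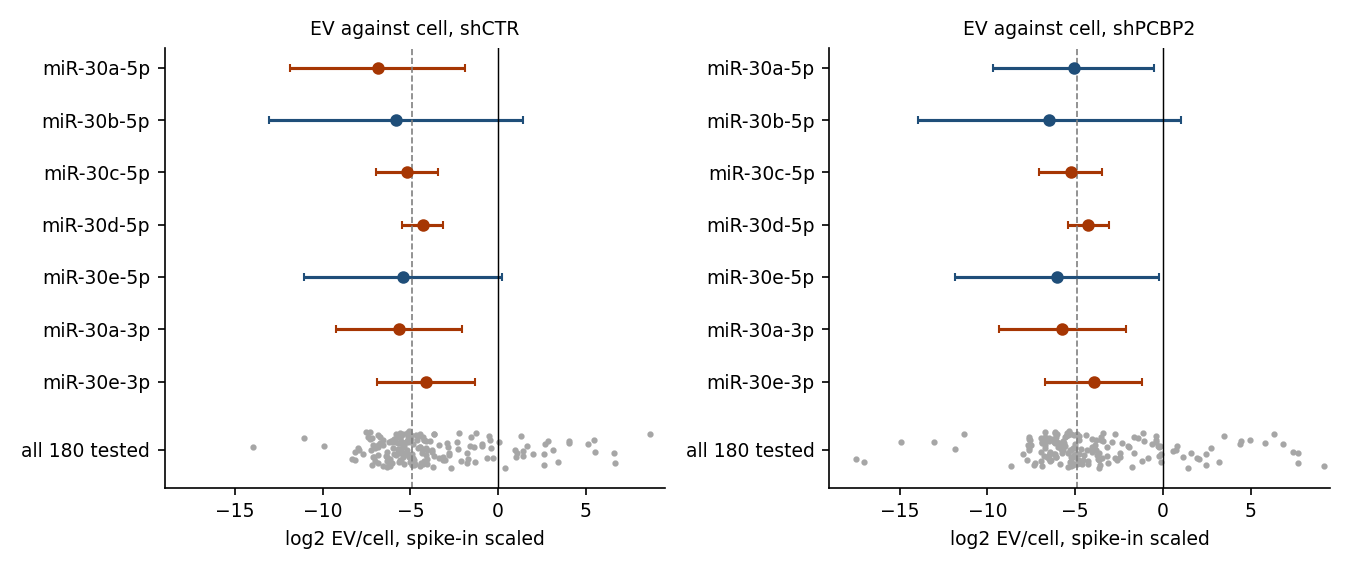
Log2 EV/cell change of the 7 members in shCTR and in shPCBP2, scaled by the spike-in, with unadjusted 95% intervals of the fit, above the changes of all 180 tested miRNAs as grey dots and their median as a dashed line. Orange-brown points had an adjusted p under 0.05, 5 members in shCTR and 4 in shPCBP2, and blue points did not. The narrowest intervals were those of miR-30d-5p (-4.30 and -4.26).

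Both members of a hairpin are cut from the same precursor, so their ratio within a library needs no scaling. In cells miR-30a-3p outnumbered miR-30a-5p 1.98 and 1.86 times in cell shCTR and 2.01 and 2.35 times in cell shPCBP2. miR-30e-3p outnumbered miR-30e-5p 2.60 and 2.54 times in cell shCTR and 3.35 and 3.38 times in cell shPCBP2. Both hairpins therefore had more 3p than 5p reads in every cell library, as did 47.6% of the 21 hairpins with both arms tested.

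In EVs the miR-30e ratio of 3p to 5p reads was 6.56 and 5.09 in EV shCTR and 3.59 in EV shPCBP2 replicate 2, and no 5p read stood against 894 3p reads in EV shPCBP2 replicate 1. The 3p arm thus exceeded the 5p arm of miR-30e in all 4 EV libraries, as in 28.6% of the 21 hairpins. The ratios lay above all 4 cell ratios, and 38.1% of the 21 hairpins had EV and cell ratios that did not overlap. The miR-30a ratio was 4.05 and 67.0 in EV shCTR, the latter resting on 1 read of miR-30a-5p, and 2.03 and 0.454 in EV shPCBP2. It overlapped the cell range, and in EV shPCBP2 replicate 2 it was the 5p arm that prevailed.

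**Figure D4:**
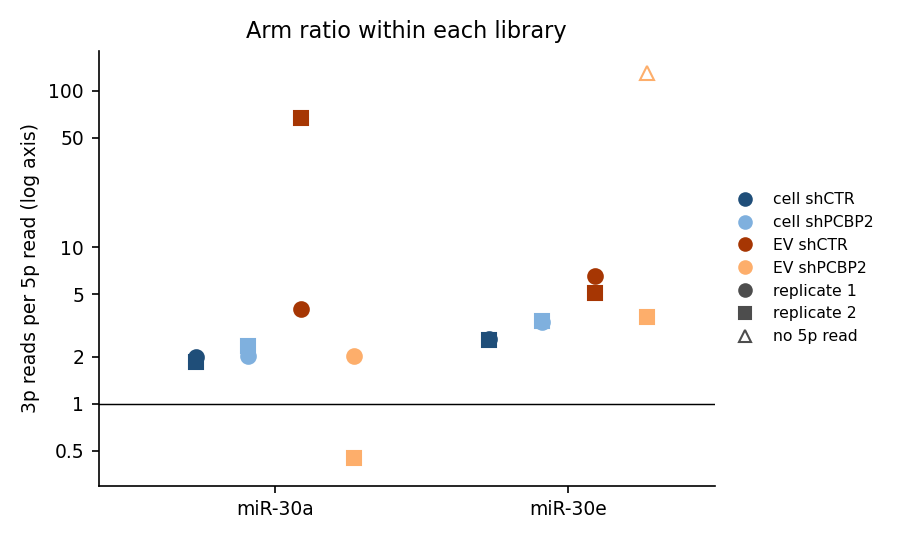
Reads of the 3p arm per read of the 5p arm for the miR-30a and miR-30e hairpins in each library, on a log axis, with an open triangle for EV shPCBP2 replicate 1, which had no miR-30e-5p read and is drawn at an arbitrary height. Cell ratios lie between 1.86 and 3.38, and EV ratios between 0.454 and 67.0.

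The second comparison asks what silencing of PCBP2, a poly(C)-binding protein, did to the family in the cells. Every member was lower in both cell shPCBP2 libraries than in both cell shCTR libraries per spike-in read, as were 66.7% of all tested miRNAs. The log2 changes ran from -0.97 for miR-30e-5p to -0.47 for miR-30a-3p, with -0.67 for miR-30a-5p, -0.64 for miR-30b-5p, -0.51 for miR-30c-5p, -0.54 for miR-30d-5p and -0.58 for miR-30e-3p. Their median was -0.58 and that of all tested miRNAs -0.49.

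None of the 7 members was called by the edgeR fit over all 8 libraries, and none had an unadjusted p under 0.05. The background was 0% called, with 25 of 180 miRNAs at an unadjusted p under 0.05. That fit draws its estimate of spread from cell and EV libraries together, and the SE of the members ran from 0.42 for miR-30d-5p to 2.42 for miR-30b-5p. Fitted on the 4 cell libraries alone, the SE ran from 0.26 to 0.31, and miR-30e-5p passed at -0.97 (SE 0.26, edgeR adjusted p = 0.00282), beside 21.7% of tested miRNAs. In the same fit miR-30b-5p and miR-30a-5p had edgeR adjusted p-values of 0.0650 and 0.0683, and the other members between 0.111 and 0.253. DESeq2 called 18 of the 180 miRNAs and limma voom 16, no member among them.

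The lower level was shared with most miRNAs. With the total miRNA count, 6 members still had no overlap and were lower in shPCBP2, where 52.2% of tested miRNAs were. With TMM factors the median over all tested miRNAs was -0.02 and over the members -0.09, and miR-30c-5p and miR-30a-3p changed sign, to 0.0061 and 0.0015.

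The third comparison asks the same of the EVs. None of the 7 members was called, beside 7.22% of all tested miRNAs, and none had an unadjusted p under 0.05. miR-30d-5p changed by -0.50 (SE 0.42, edgeR adjusted p = 0.659) and miR-30c-5p by -0.59 (SE 0.61, edgeR adjusted p = 0.742). The 3p arms changed by -0.54 for miR-30a-3p (SE 1.21) and -0.41 for miR-30e-3p (SE 1.01). miR-30a-5p was the member with a change above 0, at 1.10 (SE 1.60, edgeR adjusted p = 0.818), while miR-30b-5p gave -1.29 (SE 2.47) and miR-30e-5p -1.61 (SE 1.97). Only miR-30d-5p had both EV shPCBP2 libraries below both EV shCTR libraries, where 42.2% of tested miRNAs did.

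The value for miR-30a-5p depended on the EV shCTR library that holds 1 read of it. Without EV shCTR replicate 1 the change was 7.44 (edgeR adjusted p = 0.00668), resting on that 1 read, with the remaining library assumed to vary like those of the other groups. Without EV shCTR replicate 2 it was 0.11. Leaving out EV shCTR replicate 1 also turned miR-30a-3p to 2.05, miR-30e-3p to 1.81 and miR-30e-5p to 0.29, and leaving out EV shPCBP2 replicate 2 turned the 3p arms to 0.26 and 0.18. The direction of these 3 members in EVs therefore turned when a single library was left out, either of these 2 for the 3p arms. miR-30c-5p and miR-30d-5p stayed below 0 throughout.

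The design then asks whether silencing changed the EV/cell ratio, which is the interaction of compartment and shRNA. No member was called, beside 2.22% of tested miRNAs, and none had an unadjusted p under 0.05 (17 of 180 did). The change of the log2 EV/cell ratio was 0.04 for miR-30d-5p (SE 0.59, 95% interval -1.40 to 1.48) and -0.08 for miR-30c-5p (SE 0.86, 95% interval -2.17 to 2.02). For the other members it ran from -0.65 for miR-30b-5p to 1.77 for miR-30a-5p with SE between 1.43 and 3.41, and edgeR adjusted p-values were 0.992 throughout. The median was -0.07 over the members and -0.08 over all tested miRNAs. These intervals leave room for a change of the ratio of more than 2-fold in either direction for every member. Without EV shCTR replicate 1 the ratio of miR-30a-5p was 8.11 higher on the log2 scale (edgeR adjusted p = 0.0102), again resting on 1 read.

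Counts of members were summed in groups to see whether reads assigned to the wrong member could matter. Near-identity could be checked for miR-30a and miR-30e in each arm. The reference has no sequence for miR-30b-5p or miR-30d-5p, so their place in these groups was not checked. The change of the EV/cell ratio was 0.31 (SE 0.52) for miR-30a-5p, miR-30d-5p and miR-30e-5p together, -0.17 (SE 0.94) for miR-30b-5p and miR-30c-5p, and 0.04 (SE 1.48) for both 3p arms. For this ratio none of the sums moved by more than its SE. Between shPCBP2 and shCTR, the sum of miR-30a-5p, miR-30d-5p and miR-30e-5p changed by -0.63 (SE 0.37) in cells. That of miR-30b-5p and miR-30c-5p changed by -0.72 (SE 0.67) in EVs. The other sums in cells and in EVs moved by less than their SE.

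**Figure D5:**
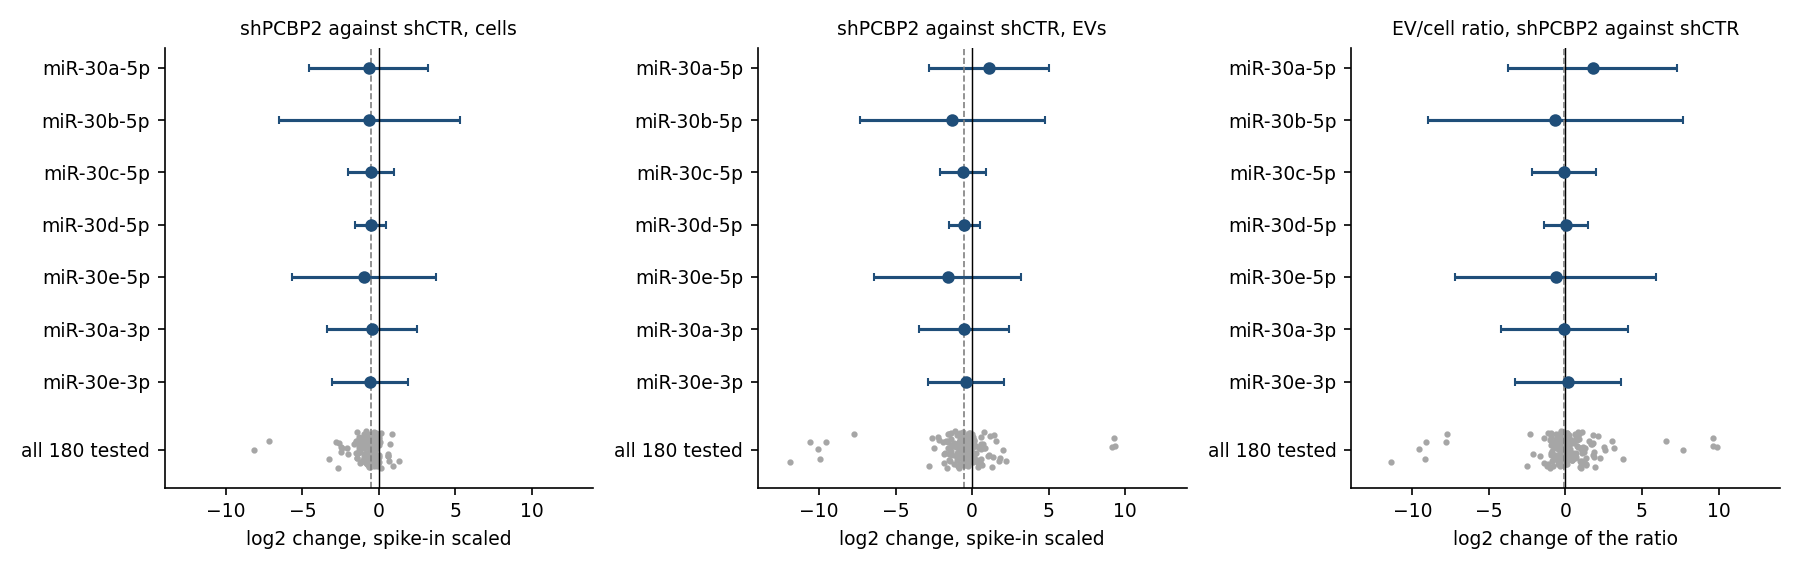
Log2 change in shPCBP2 against shCTR for the 7 members in cells, in EVs and for the EV/cell ratio, with unadjusted 95% intervals of the fit, above all 180 tested miRNAs as grey dots and their median as a dashed line. No member had an adjusted p under 0.05, and the intervals of miR-30d-5p (-0.54, -0.50 and 0.04) were the narrowest of the 7.

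The other arms of the same hairpins were read in the cells and hardly in EVs. In all, 772 miRNAs were read in the cells against 267 in EVs, and these arms ranked between 136th and 220th in the cells. miR-30b-3p had 1188 and 977 reads in cell shCTR and 1310 and 1407 in cell shPCBP2, and no read in any EV library. Against the 3 reads per library that a count of 0 allows by counting error alone, it was at least 577-fold lower in EV shCTR per spike-in read. In EV shPCBP2 it was at least 858-fold lower than in the cells. miR-30c-2-3p had 765 to 1139 reads per cell library and miR-30d-3p 86 to 196, again with no EV read, and the bounds were at least 485-fold and 101-fold lower in EV shCTR. These bounds leave out the spread between EV libraries, which could be wider than counting error. miR-30b-5p, for example, had 109 reads in EV shCTR replicate 1 and 0 in EV shCTR replicate 2. miR-30d-5p, the guide of the miR-30d hairpin, was the best read member in EVs and ranked 76th in the cells. miR-30c-1-3p had 243 to 396 reads per cell library and no EV read except in EV shPCBP2 replicate 1, where 272 were counted.
miR-30c-2-3p: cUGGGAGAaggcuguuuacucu
miR-30c-1-3p: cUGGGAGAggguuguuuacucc
These 2 passenger arms are shown because they share the seed UGGGAGA, in capitals, and differ by A9G C12U U22C.

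The tested miRNAs whose profiles over the 8 libraries were most like those of the family were found by the distance between centred log2 profiles. Nearest to the summed guides were miR-221-3p (distance 0.674), miR-125b-5p (0.713), miR-652-3p (0.730), miR-17-5p (0.751) and miR-744-5p (0.771), where the median distance over 173 miRNAs was 3.06. The nearest miRNA to miR-30d-5p was miR-425-5p (0.457), and to miR-30c-5p it was miR-221-3p (0.907). miR-106b-3p was nearest to both miR-30a-3p (0.834) and miR-30b-5p (1.06). For miR-30a-5p it was miR-99b-3p (1.11), for miR-30e-3p miR-484 (1.21) and for miR-30e-5p miR-22-3p (1.35). No member had another member as its nearest profile.

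The libraries held 26391248 to 38166798 counted reads, of which mouse miRNAs gave 8745848 to 12732173 in cells and 503070 to 687592 in EVs, so the members rest on 27988 to 47815 reads per cell library but 1146 to 3477 per EV library. All 4 hepatocyte miRNAs examined were read in the cells, and their summed level was 13024 to 20412 in cells and 206 to 313 in EVs. In cells nearly all of it was miR-194-5p, at 12381 to 19231, against 124 to 171 in EVs. The liver-specific miR-122-5p stood at a level of only 20.2 to 30.8 in cells and at 30.5 to 83.8 in EVs, and miR-148a-3p at 0.397 to 4.21 and at 19.7 to 25.7. The latter was thus higher in every EV library than in every cell library, and the ranges of miR-122-5p met. Of 7 blood cell miRNAs, all were read in EVs and their sum was 1243 to 1696, against 4.76 to 15.9 in cells. miR-451a, miR-144-3p and both arms of miR-142a had no read in any cell library. How much of the EV reads of the miR-30 members came from the same source as these blood cell miRNAs was not tested.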

How the data were processed

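Small RNAs of 4 cell and 4 EV libraries of 3A hepatocytes were sequenced. The authors trimmed the reads with FastqToolkit, mapped them with mirPRo and NovoAlign to mouse miRBase hairpins and the spike-in, and deposited 1 table of raw read counts per mature miRNA, with no molecular identifiers. Counts above 6 digits are rounded in that table to 6 significant digits. How reads shared by near-identical members were assigned is not given in the sources used here.

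Library sizes were set proportional to the cel-miR-39-3p count. Counts of the 180 tested miRNAs were fitted over all 8 libraries with edgeR 4.0.16 (R 4.3.3), quasi-likelihood test, prior count 0.125, group means and contrasts, with Benjamini-Hochberg adjustment over all 180 and a threshold of 0.05. The common dispersion was 0.69, with 4 residual degrees of freedom. DESeq2 1.42.0, limma voom 3.58.1, other scalings, filters and left-out libraries were alternatives. Scripts were tested on simulated data. Distances used log2(reads per 1000000 spike-in reads + 1), centred per miRNA, and replicate differences a pseudocount of 0.5 counts. Binomial and Poisson intervals and zero-count limits cover counting error only, while intervals of fitted changes include the spread between libraries.

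Samples were grouped by genotype and source. Titles and descriptions number some shPCBP2 replicates differently, and the title numbers are used. The text names the 7 members, the other arms of their hairpins, miR-384, the nearest profiles and the marker miRNAs. Members and lists were chosen with earlier results of these data known.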

Additional observations from a re-analysis of the deposited data

Results flagged for a closer look

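Both results concern arms outside the 7 members, which entered no comparison of the family. miR-30b-3p was higher in both cell shPCBP2 libraries than in both cell shCTR libraries, while all 7 members were lower there per spike-in read. Its mean level was 76.6 reads per 1000000 cel-miR-39 reads in cell shPCBP2 and 64.4 in cell shCTR, and the fitted log2 change of 0.25 (SE 0.65) did not pass edgeR's quasi-likelihood test with no filter on low counts (Benjamini-Hochberg adjusted p = 1). miR-30c-1-3p had 272 reads in EV shPCBP2 replicate 1 and none in any of the other EV libraries, EV shCTR included. The change between EV groups did not pass the same test (edgeR adjusted p = 0.337).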

How the results depend on the processing

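Scaled by TMM, by the median of ratios or by total counts, 0 members were called in EV against cell in either condition, in place of 5 and 4. Of all tested miRNAs, 45.6%, 42.2% and 41.7% were called in either direction in shCTR, and 48.3%, 47.8% and 49.4% in shPCBP2. The log2 changes under these 3 scalings were 0.47, 0.48 and 0.69 for miR-30d-5p and 0.61, 0.55 and 0.79 for miR-30e-3p in shCTR, and 0.26, 0.46 and 0.91 and 0.56, 0.77 and 1.24 in shPCBP2, where total counts gave 0.0915 for miR-30a-5p. DESeq2 and limma voom called 7 members in shPCBP2. In cells, TMM gave 0.0061 for miR-30c-5p and 0.0015 for miR-30a-3p, and the 4 cell libraries alone gave 1 call. In EVs, total counts gave 0.0245 for miR-30a-3p and 0.15 for miR-30e-3p, and median-of-ratios factors and voom gave 0.0399 and 0.13 for miR-30e-3p. The EV/cell ratio changed sign with total counts (0.10 for miR-30c-5p, 0.23 for miR-30a-3p), TMM (-0.21 for miR-30d-5p, -0.048 for miR-30e-3p), median-of-ratios factors (-0.0172 for miR-30d-5p) and voom (0.33 for miR-30a-3p). The cause was not tested. Leaving out 1 library at a time gave 3 to 6 calls in EV against cell in shCTR and in shPCBP2, 0 in cells, and 0 to 1 in EVs and for the ratio. In the ranges that follow, values beyond 7 in size come from a lone EV library with 0 reads, depend on the prior count and are no measure of size. Over these fits the EV change ran from -8.43 to 7.23 for miR-30b-5p, -9.25 to 0.29 for miR-30e-5p, -2.50 to 2.05 for miR-30a-3p and -1.43 to 1.81 for miR-30e-3p. The ratio ran from -7.79 to 7.87 for miR-30b-5p, -0.88 to 0.44 for miR-30c-5p, -0.48 to 0.42 for miR-30d-5p, -8.27 to 1.26 for miR-30e-5p, -2.03 to 2.52 for miR-30a-3p and -0.85 to 2.39 for miR-30e-3p. With the replicate block the calls were 5, 4, 0, 0 and 0, as without it. Beside them, 61.7%, 61.7%, 0%, 1.11% and 0.556% of all tested miRNAs were called in either direction. Whether the numbers pair the samples is not given in the sources used here. With the title numbers, differences between replicates correlated at -0.51 between the cell groups and at -0.09 to 0.04 elsewhere. These correlations cannot show whether samples shared a culture. A block with the cell shPCBP2 numbers crossed, chosen after seeing the data, gave 0 calls in cells, beside 0% of all tested miRNAs. With at least 10 counts in every library 4 members had values. A fit on 4 libraries is not possible for the ratio.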
